A study of Homo sapiens with 3 samples.

Results

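The genes described here are the D-type cyclins CCND1, CCND2 and CCND3, their kinases CDK4 and CDK6, the kinase inhibitors CDKN1B, CDKN1C, CDKN2A and CDKN2B, and RB1, the protein these kinases act on. They were taken by name, as every probe set that the platform annotation assigns to 1 of these genes. This gave 29 probe sets for 10 of the 19775 genes that the array names by a probe set with a single gene. Expression had been measured on 3 single-colour Affymetrix arrays (Human Genome U133 Plus 2.0) with RNA from SK-Mel-28 cells, a long-established line of human melanoma. All cells, the controls included, stably carried the vector pSilencer 3.1-H1 neo, in which the H1 promoter drives the hairpin. On 1 array the vector encoded a scrambled hairpin, and on the other 2 a hairpin against melanotransferrin (MTf, gene MELTF), an iron-binding protein of the cell surface. The arrays labelled B1 and B2 are referred to as siRNA array 1 and siRNA array 2. The sample labels put the target at nucleotides 2048 to 2066 of the MTf transcript, while the design text of the study gives a range that starts and ends earlier. Whether B1 and B2 are distinct clones or cultures is not stated in the labels, and the p-values therefore reflect only how far these arrays differ, a spread that may be technical. The comparison asks which transcripts differ in melanoma cells that carry the MTf hairpin.

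A D-type cyclin binds CDK4 or CDK6 in the G1 phase of the cell cycle, and the active kinase phosphorylates the retinoblastoma protein RB1. Phosphorylated RB1 releases E2F transcription factors, which switch on genes for DNA replication. CDKN2A and CDKN2B encode the INK4 inhibitors p16INK4a and p15INK4b, which bind CDK4 and CDK6 directly, while CDKN1B (p27) and CDKN1C (p57) bind whole cyclin-kinase complexes. CDKN2A also encodes ARF, a protein read in another frame from a different first exon, which stabilises p53. Loss of CDKN2A and gain of cyclin D1 or CDK4 are among the recurrent lesions of melanoma.

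CDKN2A and CDKN2B were the only members with a called difference, and they lie next to each other on chromosome 9, so the bases before their transcription starts are shown. Sequences are those of RefSeq on the build GRCh38.p14, the 250 bases upstream of each start, 5′ to 3′ on the minus strand from which both genes are read. The start used for ARF follows chr9:21995325-21995574, the start used for p16INK4a follows chr9:21974858-21975107, and the start of CDKN2B follows chr9:22009306-22009555. Capitals mark a GC box, searched as the letters GGGCGG on both strands.
CDKN2A, ARF start: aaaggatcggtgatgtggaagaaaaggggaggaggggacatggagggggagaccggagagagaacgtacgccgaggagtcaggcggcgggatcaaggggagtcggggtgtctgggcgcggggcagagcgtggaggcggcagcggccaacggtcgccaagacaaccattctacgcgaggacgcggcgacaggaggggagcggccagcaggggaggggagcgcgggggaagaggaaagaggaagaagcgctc
CDKN2A, p16INK4a start: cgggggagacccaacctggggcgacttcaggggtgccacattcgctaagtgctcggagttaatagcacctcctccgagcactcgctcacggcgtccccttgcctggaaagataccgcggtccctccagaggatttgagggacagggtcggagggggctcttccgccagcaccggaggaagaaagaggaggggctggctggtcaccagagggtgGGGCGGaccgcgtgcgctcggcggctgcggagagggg
CDKN2B: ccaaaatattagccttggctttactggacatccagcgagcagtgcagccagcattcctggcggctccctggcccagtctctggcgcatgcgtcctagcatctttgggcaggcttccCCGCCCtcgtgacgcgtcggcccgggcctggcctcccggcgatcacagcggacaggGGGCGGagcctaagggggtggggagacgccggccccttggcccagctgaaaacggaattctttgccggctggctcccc
The GC box was present in 42.6% of the 35116 windows of this length in the RefSeq table. It did not occur before the ARF start, occurred once before the p16INK4a start at 37 to 32 bases upstream, and occurred before the CDKN2B start at 134 to 129 and at 78 to 73 bases upstream. The GC content of these windows was 66.8%, 66.8% and 66.4%, against a median of 58.0% over all windows. Of all windows, 71.7%, 71.7% and 70.7% had a lower GC content than these. The windows of members without a call ran from 36.8% in RB1 to 80.0% in CDK6. None of the 3 windows held the E2F-type letters TTTCGCGC (found in 0.439% of all windows) or TTTGGCGC (in 0.55%), the E-box CACGTG (in 6.35%), the E-box form CATGTG that MITF can bind (in 9.42%), the AP-1 letters TGANTCA (in 6.57%), CCAAT (in 32.0%) or TATAAA (in 10.7%), each searched on both strands. Windows were found for 7 of the 10 members, CCND3, CDK4, CDK6, CDKN1B, CDKN2A, CDKN2B and RB1. A match describes these letters only and is no evidence of binding.

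Signals are in the linear units of the deposited table. Differences are given as log2(signal + 47.4) on the siRNA arrays minus the scrambled array, a scale that understates changes of dim probe sets. The bacterial trp control probe sets read 7.0 to 97.2, and no log2 difference is read where the dimmer side lay below 97.2. The median signal of the 3 arrays ran from 160.6 to 199.5, and the median probe set tested was 0.11 higher on the siRNA arrays, a shift against which small differences have to be read. The ribosomal RNA control probe sets of siRNA array 1 had a median ratio of 4.01 to the scrambled array, against 0.985 for siRNA array 2. The brightest MELTF probe set read 32608 in the scrambled cells and 18968 and 18974 in the siRNA cells. Its adjusted p over probe sets was 0.0699 (limma). The next brightest read 8284, 10567 and 11199 (limma, adjusted p = 0.318). The dimmer ones read 915.2, 699.7 and 283.6 (limma, adjusted p = 0.326), and 546.4, 693.7 and 665.7 (limma, adjusted p = 0.640). No MELTF probe set thus had an adjusted p under 0.05, and the probe sets of the targeted gene did not move together. All 7 melanocyte markers with a probe set of their own were above 97.2 on every array, with a summed signal of 242062 to 289528. Of these TYRP1 fell, from 53204 to 5022 and 12370 (limma, adjusted p = 0.0215 over genes), and TYR rose, from 19988 to 35193 and 37555 (limma, adjusted p = 0.0337 over genes), both enzymes of pigment synthesis. Over probe sets TYRP1 passed (limma, adjusted p = 0.0374) and TYR missed the threshold (limma, adjusted p = 0.0529). Of the fibroblast markers 4 of 8 were above 97.2 on every array, and COL3A1 was below it throughout. The summed signal of the list went from 2240 to 5956 and 6430, a rise that lay in LUM (598.6, 4850 and 4841). The other 3 had mean differences below 0: COL1A1 (671.9, 487.9 and 565.1), DCN (256.0, 139.9 and 301.3) and THY1 (256.4, 216.8 and 250.2). Of the epithelial markers 2 of 7 were above 97.2 on every array, KRT18 (1308, 2483 and 2149) and KRT8 (483.2, 207.6 and 297.1), with a summed signal of the list of 2015, 2922 and 2790, while EPCAM, CDH1, KRT14 and KRT19 were below it throughout. Of the endothelial markers 1 of 5 was above it, PECAM1 (228.2, 284.8 and 459.5), with sums of 516.8, 428.0 and 730.0, and CDH5 and TEK were below it. Of the 4 leukocyte markers with a probe set 1 was above it, with sums of 391.2, 269.8 and 321.8, and PTPRC and CD14 were below it. The part of these markers in the results was not tested.

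Of the 29 probe sets, 16 were above the filter on mean signal and were tested, and they covered 9 of the 10 genes, CCND2 being the exception. Both INK4 genes fell: 2 of the 9 genes passed the threshold of an adjusted p under 0.05, CDKN2A and CDKN2B, and no member passed it upwards. Over all 12386 genes tested, 1.99% were called lower and 2.70% called higher. By probe set the count was 2 of 16, against 2.09% of 27306 probe sets called in either direction. A further 3 genes, CCND1, CCND3 and RB1, had an unadjusted p under 0.05 only, which makes 5 of 9 where 23.5% of all genes reached it. For all 9 genes both siRNA arrays lay on the same side of the scrambled array, as they did for 79.2% of all genes. The members' median difference was -0.23, being -0.02 on siRNA array 1 and -0.44 on siRNA array 2, and that of all genes was 0.10. The members' median was -0.40 with arrays centred on their medians and -0.04 with a filter at the 75th percentile. Under these settings the median of all probe sets tested also moved, from 0.11 to -0.06 and 0.03. Fewer cells that express a gene and less of its RNA per cell cannot be told apart in such bulk samples.

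**Figure D1:**
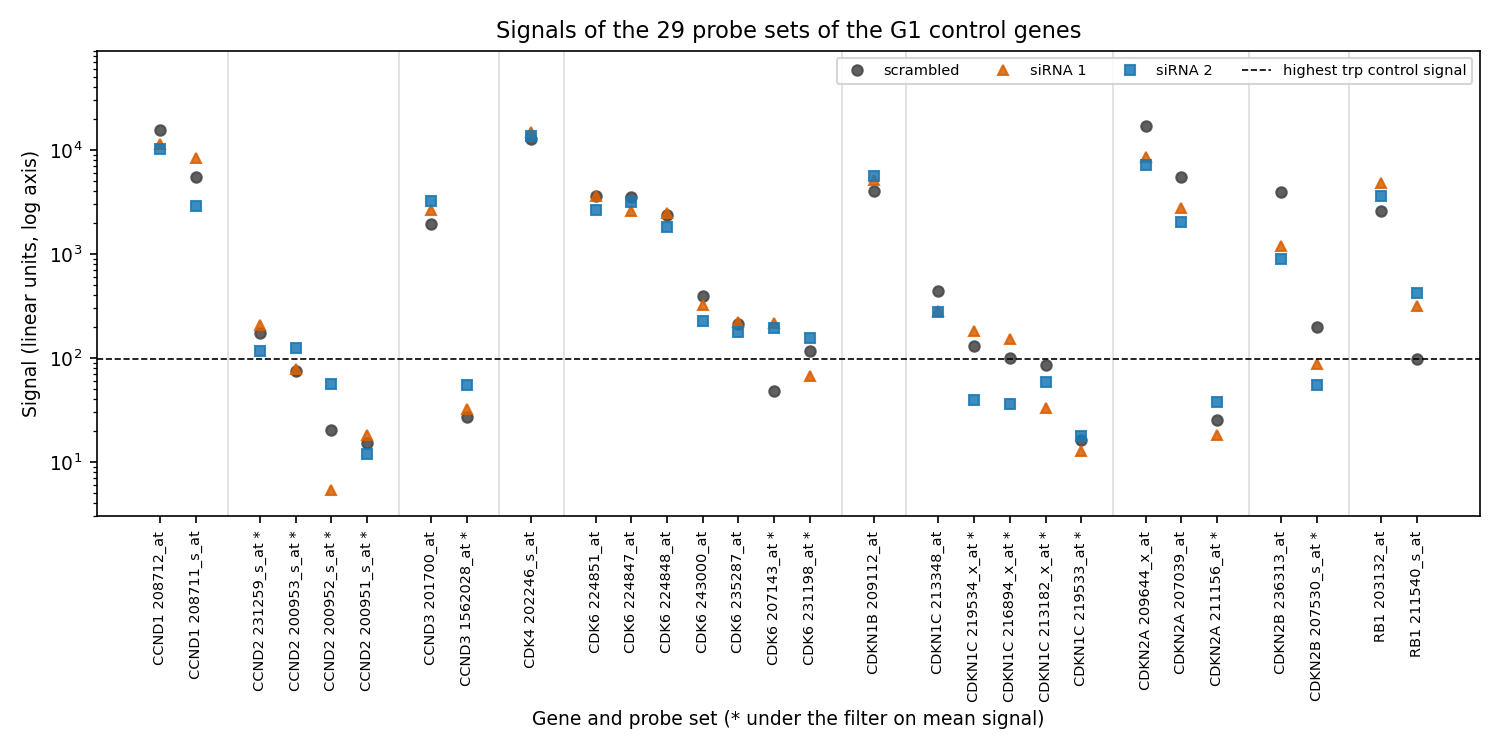
Signal (linear units on a log axis) of each of the 29 probe sets on the scrambled array (circles), siRNA array 1 (triangles) and siRNA array 2 (squares), with the highest trp control signal of 97.2 as a dashed line and probe sets under the filter on mean signal marked with a star. The scrambled array reads highest for the brighter probe sets of CDKN2A and CDKN2B and lowest for those of CCND3, CDKN1B and RB1.

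CDKN2B, the gene of p15INK4b, differed most among the members. Its brighter probe set (236313_at) read 3966.3 on the scrambled array, 1183.6 on siRNA array 1 and 902.0 on siRNA array 2. Both siRNA arrays were therefore far below the scrambled one, at 29.8% and 22.7% of its signal. The log2 difference was -1.89 ± 0.27 (SE; limma, adjusted p = 0.0164 over the 12386 genes and 0.0286 over the 27306 probe sets), which put CDKN2B at rank 58 from the lowest of 12386 genes. Among the 16 member probe sets tested it was the 1 at least 2-fold lower on both siRNA arrays, as were 1.83% of all probe sets tested. A second, dim probe set (207530_s_at) read 198.7, 87.7 and 54.4, again with both siRNA arrays below the scrambled array. Those siRNA signals lie under the trp level, so its mean change is given as at least 2.04-fold lower, without a test.

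CDKN2A, the gene of p16INK4a and ARF, also fell. Its brightest probe set (209644_x_at) read 16863 on the scrambled array, 8603 on siRNA array 1 and 7225 on siRNA array 2, which is 51.0% and 42.8% of the scrambled signal. The siRNA arrays were close to each other and well apart from the scrambled array. The log2 difference was -1.09 ± 0.20 (SE; limma, adjusted p = 0.0313 over genes and 0.0496 over probe sets), at rank 307 from the lowest. The second bright probe set (207039_at) read 5463, 2742 and 2009, with the siRNA arrays at 50.2% and 36.8% of the scrambled signal. Its log2 difference was -1.20 ± 0.27 (SE), which did not pass over the probe sets (limma, adjusted p = 0.0705). The third (211156_at) was below the trp level on all arrays, at 25.1, 18.0 and 37.5. Which of the CDKN2A transcripts each probe set reads is not given in the platform annotation used here. CDKN2A and CDKN2B are related in sequence, and a probe set with the suffix x can share probes with related transcripts, so the signal of 209644_x_at may not be of CDKN2A alone. On siRNA array 2 the differences of CDKN2A (-1.22) and CDKN2B (-2.08) were larger than on siRNA array 1 (-0.97 and -1.71), each value resting on a single siRNA array. The part of the ribosomal control ratio in these differences was not tested.

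These calls rested on how the spread was modelled and on which probe sets were tested. Without the trend of the spread on mean signal the gene-level adjusted p was 0.160 for CDKN2A and 0.10 for CDKN2B, and without a filter it was 0.0887 and 0.0635. CDKN2A also missed the threshold narrowly under a stricter filter, the 75th percentile of the mean signal (0.0521) and with quantile normalization (0.0523), while CDKN2B passed with both (0.0364 and 0.0324).

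**Figure D2:**
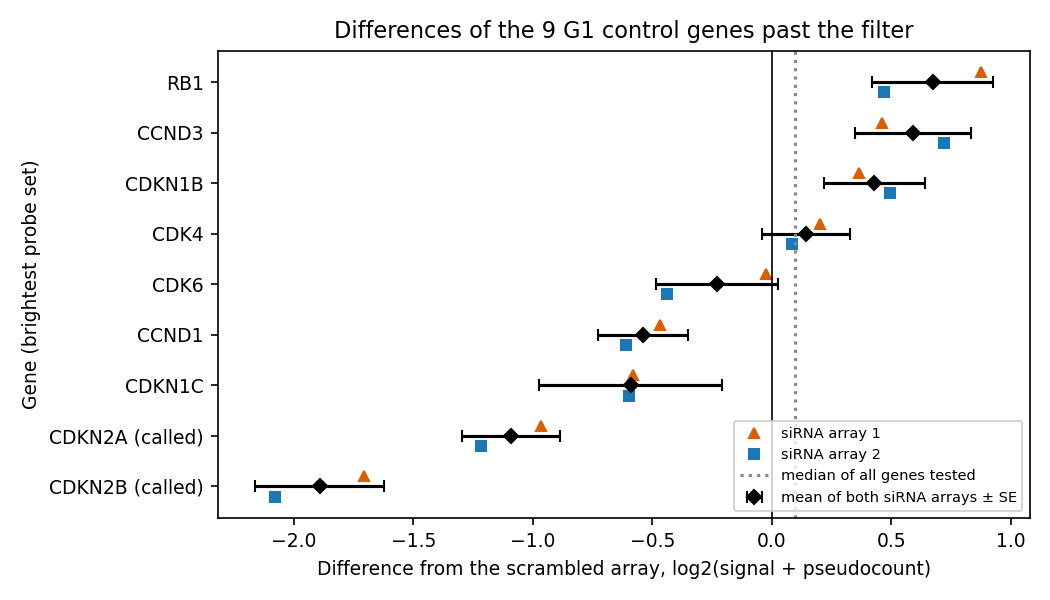
Difference from the scrambled array on the log2(signal + pseudocount) scale for the 9 genes tested, by their brightest probe set, with siRNA array 1 as triangles, siRNA array 2 as squares, the mean of both with its SE from limma as diamonds and bars, and the median of all genes as a dotted line. CDKN2B (-1.89) and CDKN2A (-1.09), the called genes, lie lowest, and RB1 (0.67) lies highest.

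The genes on either side of CDKN2A and CDKN2B on chromosome 9 were set beside them, a comparison chosen after the values were seen. The stretch of 10 tested genes from IFNA17 to PLAA, in the RefSeq order, was built around CDKN2A and CDKN2B, so their calls were given beforehand. None of the tested neighbours was called, where 1.99% of all genes were called lower and 2.70% higher. At such shares, so few neighbours cannot show whether calls are confined to these genes. MTAP, the next tested gene on 1 side, encodes an enzyme of methionine salvage. It read 1463 in the scrambled cells and 1712 and 2762 in the siRNA cells. Its log2 difference was thus above 0, at 0.56 ± 0.32 (SE; limma, adjusted p = 0.337), and its other 4 tested probe sets differed by 0.13 to 0.43, none of them called. The antisense transcript CDKN2B-AS1 was below the trp level throughout, at 13.6, 9.9 and 5.3, and so was DMRTA1, at 31.2, 17.5 and 10.9. Another antisense transcript, CDKN2A-AS1, read 63.3, 29.8 and 109.8, on both sides of the trp level, and was not tested. KLHL9, an adaptor of a CUL3 ubiquitin ligase beyond MTAP, read 5375, 3521 and 2598 (-0.82 ± 0.26, SE; limma, adjusted p = 0.105). ELAVL2, an RNA-binding protein gene on the other side, read 568.0, 298.8 and 318.9 (-0.79 ± 0.36, SE; limma, adjusted p = 0.240). Both siRNA arrays lay below the scrambled array in these probe sets, and the genes did not pass the test. The other 2 tested KLHL9 probe sets differed by -0.37 and -0.28. The latter split the siRNA arrays, at 313.3 in the scrambled cells against 193.8 and 320.1. The outer genes IFNA17, TUSC1, CAAP1 and PLAA differed by -0.07, -0.10, -0.13 and 0.21. MIR31HG differed by 0.06, and by -0.11 with arrays centred on their medians. The measured genes of this stretch thus lay on both sides of the scrambled array.

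**Figure D3:**
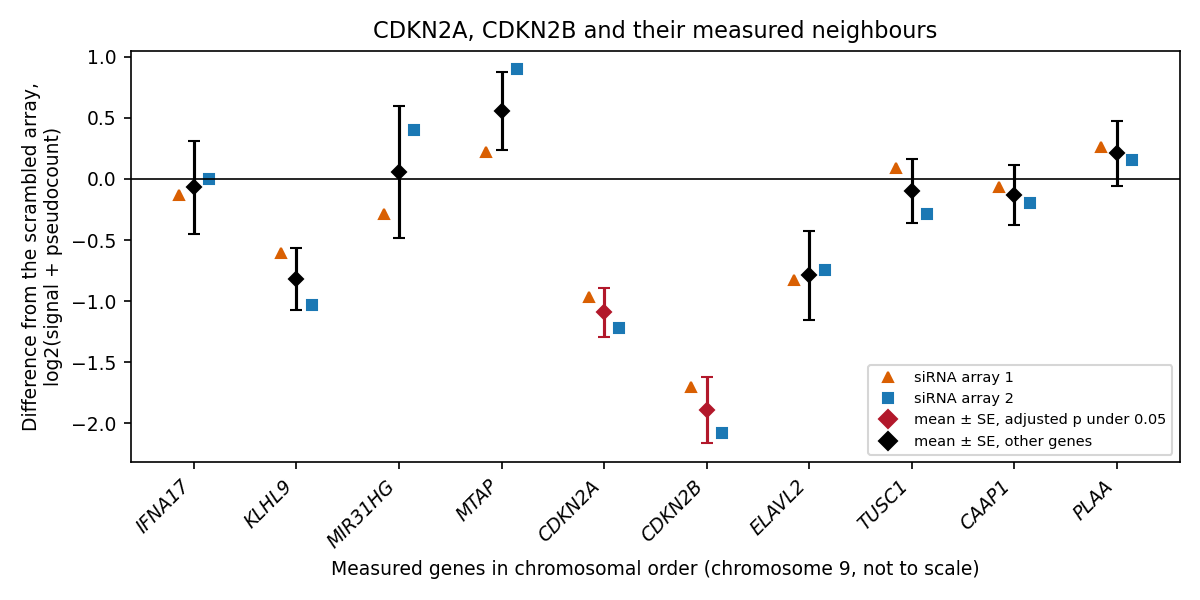
Difference from the scrambled array on the log2(signal + pseudocount) scale for the 10 tested genes around CDKN2A and CDKN2B, in chromosomal order and not to scale, with siRNA array 1 as triangles, siRNA array 2 as squares and the mean ± SE from limma as diamonds, red where the adjusted p was under 0.05. CDKN2A and CDKN2B are red, and MTAP beside them lies above 0 on both siRNA arrays.

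The D cyclins did not share a direction. CCND1, the D cyclin most often amplified in tumours, read 15711 in the scrambled cells and 11343 and 10266 in the siRNA cells in its brightest probe set (208712_at). Both siRNA arrays were lower, at 72.2% and 65.3%, with a log2 difference of -0.54 ± 0.19 (SE) that did not pass (limma, adjusted p = 0.138 over genes). The other CCND1 probe set (208711_s_at) split the siRNA arrays, reading 5515 on the scrambled array against 8276 and 2919. There the siRNA arrays lay on opposite sides of the scrambled array, with log2 differences of 0.58 and -0.91 (limma, adjusted p of their mean = 0.901 over probe sets). CCND3 went the other way from the brighter CCND1 probe set: its probe set 201700_at read 1923 against 2666 and 3198. The siRNA arrays stood at 139% and 166% of the scrambled signal, and the log2 difference of 0.59 ± 0.24 (SE) did not pass (limma, adjusted p = 0.192). Its second probe set read 27.1, 32.3 and 54.2, below the trp level. CCND2 was dim. The brightest of its 4 probe sets (231259_s_at) read 174.5, 205.8 and 116.9, with the scrambled array between the siRNA arrays, and the others read 5.4 to 125.7 over all arrays. No CCND2 probe set was above the filter, so this cyclin was not tested.

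The kinases differed little. CDK4 has 1 probe set (202246_s_at), which read 12875 in the scrambled cells and 14832 and 13674 in the siRNA cells. At 115% and 106% of the scrambled signal, the log2 difference was 0.15 ± 0.18 (SE; limma, adjusted p = 0.695), close to the shift of the median probe set, and it turned to -0.03 with arrays centred on their medians (adjusted p = 0.968). CDK6, the kinase that shares the D cyclins with CDK4, has 7 probe sets, of which 5 were tested and none was called. The brightest (224851_at) read 3627, 3569 and 2666, so only siRNA array 2 stood clearly below the scrambled array. Its log2 difference was -0.23 ± 0.26 (SE; limma, adjusted p = 0.644), and the other 4 tested differed by -0.07 to -0.47. Among these, 224847_at read 3526, 2597 and 3127 and 224848_at read 2386, 2493 and 1805, so that a different siRNA array was the lower one in each. A dim CDK6 probe set (207143_at) went the other way, at 48.1 in the scrambled cells and 214.1 and 194.1 in the siRNA cells, at least 2.10-fold higher and not tested. The remaining probe set (231198_at) read 116.9, 67.2 and 155.4, on both sides of the trp level.

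The inhibitors of the other family, CDKN1B and CDKN1C, were not called, and their values lay on opposite sides of the scrambled array. CDKN1B, the gene of p27, whose protein level is held low by SKP2-dependent degradation in cycling cells, read 4011 in the scrambled cells and 5174 and 5676 in the siRNA cells. These were 129% and 142% of the scrambled signal, with a log2 difference of 0.43 ± 0.21 (SE; limma, adjusted p = 0.274). CDKN1C, an imprinted gene, read 443.4 against 280.6 and 276.6 in the 1 probe set tested (213348_at). The siRNA arrays were nearly equal there, at 63.3% and 62.4%, but the fit allows dim probe sets a wide error, and the log2 difference of -0.59 ± 0.38 (SE) did not pass (limma, adjusted p = 0.401). The other 4 CDKN1C probe sets were too dim to be tested, and their orders differed. Of these, 219534_x_at read 130.7, 180.7 and 39.3 and 216894_x_at read 99.4, 150.4 and 36.0, with siRNA array 1 highest and siRNA array 2 lowest in each. Below the trp level, 213182_x_at read 85.2, 32.7 and 59.0, with the scrambled array highest as in 213348_at, and 219533_at read 16.1, 12.6 and 17.7.

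RB1, the substrate of CDK4 and CDK6, read higher on the siRNA arrays in both of its probe sets. The brighter (203132_at) read 2581 in the scrambled cells and 4782 and 3588 in the siRNA cells, 185% and 139% of the scrambled signal. The log2 difference of 0.67 ± 0.25 (SE), the highest among the members, did not pass (limma, adjusted p = 0.160), and RB1 had rank 10565 from the lowest of 12386 genes. The dimmer (211540_s_at) read 96.4 in the scrambled cells and 315.1 and 419.2 in the siRNA cells, at least 3.74-fold higher (limma, adjusted p = 0.105 over probe sets). Among the 16 member probe sets tested it was the 1 at least 2-fold higher on both siRNA arrays, as were 3.93% of all probe sets tested. With a gene taken as the mean of its probe sets, RB1 passed the threshold (1.09; limma, adjusted p = 0.0405), a value that rests on the dim probe set.

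The rest of the G1/S pathway was followed in 5 lists, described by counts and medians beside the median of all genes (0.10). For all probe sets tested the median was 0.11 as deposited and -0.06 with arrays centred. It was 0.0008 with quantile normalization and 0.03 with the stricter filter, so list medians under these settings are read against those values. Genes that E2F factors are known to switch on, mostly of DNA replication, had a median of 0.57 over the 16 of 17 measured, the highest of the 5 lists over both siRNA arrays, with 14 above 0, as were 7123 of all 12386 genes. In this list 5 of 16 genes had an unadjusted p under 0.05, all higher, where 1762 of all 12386 genes reached it with a higher value. Only MCM6, a subunit of the replicative helicase, rose: it read 3990 in the scrambled cells and 8769 and 11948 in the siRNA cells (1.35 ± 0.24, SE; limma, adjusted p = 0.0282 over genes). MCM5, of the same helicase, read 1745, 3113 and 5288 (adjusted p = 0.0776), and MYBL2, a transcription factor of the G1/S and G2 phases, read 99.6, 324.8 and 516.8 (adjusted p = 0.0814), both by limma and neither called. The siRNA arrays differed in this list. On siRNA array 1 MCM2, CDC45, RRM1, RRM2, TYMS and TK1 lay below the scrambled array and the others measured above it. On siRNA array 2 all measured genes of the list lay above it. The median of the list was 0.19 on siRNA array 1 and 0.99 on siRNA array 2. On siRNA array 1 it was not the highest, since the 2 other kinase inhibitors measured had a median of 0.43 there. The median over both arrays was 0.40 with arrays centred and 0.37 with the stricter filter. The part of the ribosomal control ratio, 4.01 and 0.985 on these arrays, was not tested.

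Among the pocket proteins, E2F factors and their DP partners, all 12 listed genes were measured, with a median of 0.44 (0.18 and 0.57 on siRNA arrays 1 and 2). That median was 0.27 both with arrays centred and with quantile normalization, and 0.13 over the 7 genes left by the stricter filter. The DP partner TFDP2 was the only one called, and it fell: it read 5028 in the scrambled cells and 2039 and 2595 in the siRNA cells (-1.11 ± 0.25, SE; limma, adjusted p = 0.0490 over genes). Over probe sets it missed the threshold (adjusted p = 0.0733), and its other 2 tested probe sets differed by -0.99 and -0.59, also uncalled by limma. The DP partner TFDP1 stood on the other side, at 1300 against 2038 and 3600 (1.03; limma, adjusted p = 0.123), and so did E2F8, a repressive E2F, at 360.2 against 501.5 and 978.3 (0.88; limma, adjusted p = 0.258). Both TFDP2 and MCM6 lost their calls without a filter, with the stricter filter and without the trend, and TFDP2 also with quantile normalization and with the mean of its probe sets.

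Cyclins E and A with CDK2 and its phosphatase CDC25A, which act after the D cyclins, had 0 of 5 called genes, with 1 at an unadjusted p under 0.05. Their median of -0.05 (-0.17 and 0.28 on siRNA arrays 1 and 2) was -0.22 with arrays centred and turned to 0.05 with quantile normalization and to 0.23 with the mean of probe sets. CCNE2, a cyclin E, read 453.1 in the scrambled cells and 784.5 and 1787 in the siRNA cells, or 173% and 394% (limma, adjusted p = 0.134), while CCNE1 read 622.1, 548.0 and 990.9 and CDC25A 204.0, 140.5 and 258.6. For the last pair the scrambled array lay between the siRNA arrays. The genes of kinase assembly, kinase activation and cyclin or inhibitor turnover had 0 of 13 called and 1 at an unadjusted p under 0.05, with a median of -0.21, or -0.38 with arrays centred. That gene was CKS1B, the cofactor of SKP2 in the degradation of p27, at 13123 against 8430 and 8709 (-0.61 ± 0.19, SE; limma, adjusted p = 0.104). CUL1, the scaffold of the same ligase, differed by -0.47, and by -0.24 with the mean of its probe sets. The other parts of this ligase in the list did not lie lower, SKP2 at 0.26 and SKP1 at 0.08. SKP2 split the siRNA arrays, at -0.10 and 0.61. AMBRA1, the receptor that directs D cyclins to degradation, differed by 0.50. None of these genes was called. Of the other kinase inhibitors CDKN1A (p21) read 445.3, 696.1 and 560.5 and CDKN2D (p19INK4d) read 233.3, 292.3 and 255.1. Neither was called (limma), neither had an unadjusted p under 0.05, and their median of 0.32 was 0.15 with arrays centred and 0.12 with quantile normalization. The difference of CDKN2D, 0.19, turned to -0.01 with quantile normalization. CDKN2D, the one further INK4 gene tested, was thus not lower on the siRNA arrays as deposited.

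**Figure D4:**
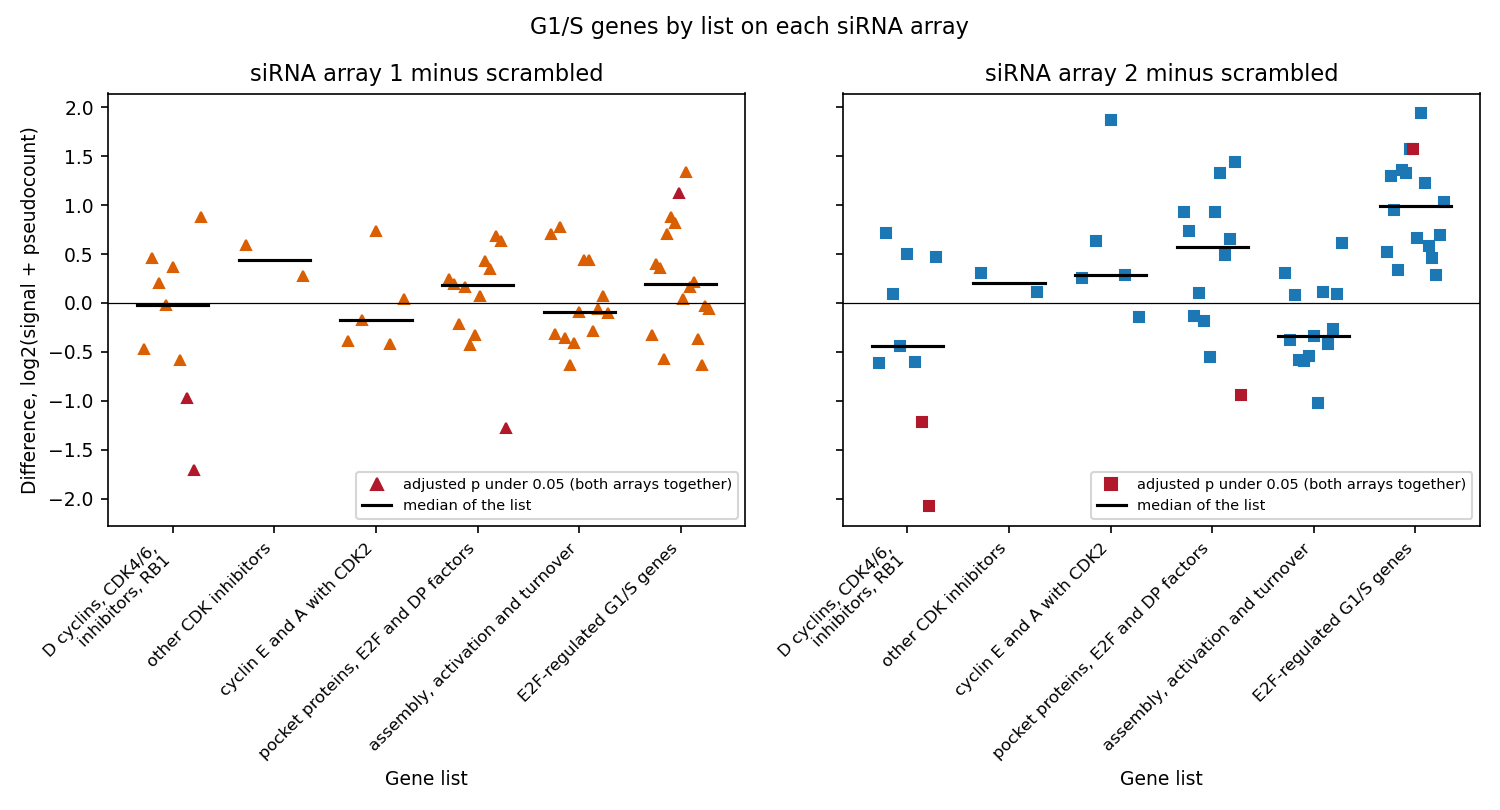
Difference of each gene from the scrambled array on the log2(signal + pseudocount) scale on siRNA array 1 (left, triangles) and siRNA array 2 (right, squares), by list, with bars at the list medians and called genes in red. The E2F-regulated genes have the highest median on siRNA array 2 (0.99), and CDKN2B and CDKN2A lie lowest among the members on both arrays.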

How the data were processed

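The signals are deposited intensity values on a linear scale, 1 per probe set and array, made by the authors with GCOS 1.3, per the submitters' processing notes. The mean after trimming 2% at each end was close to 1000 on each array (1000.14, 1000.12 and 1000.13), so the arrays had been scaled before deposit. Other settings were not given in the sources used here. Of 54675 rows, 62 control probe sets were left out. The platform annotation names 1 gene for 41091 of the rest, several for 1801 and none for 11721. No symbol changed against the RefSeq gene table (GRCh38.p14), in which 54 Entrez identifiers had no match.

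Values were analysed as log2(signal + 47.4), the pseudocount being the 25th percentile of all signals. Probe sets with a mean above the median (7.74) were kept, 27306 in all. The 12386 genes, each by its brightest probe set, were fitted separately. limma 3.58.1 in R 4.3.3 (lmFit, eBayes with a trend) gave two-sided p-values, adjusted by Benjamini-Hochberg and called under 0.05. There was 1 residual degree of freedom, to which moderation added 6.36 for probe sets and 6.66 for genes, and the scrambled condition, with 1 array, was taken to vary as the siRNA arrays do. The number of arrays limits the precision. Where a signal on the dimmer side lay below 97.2, a bound was taken from signals raised to that level.

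All members were named in every probe set, then from each list the called genes and the 3 largest differences. Some further list genes were given beside these. The members and lists were chosen with earlier results of these data known. Alternatives were other pseudocounts, filters, normalizations, spread models and probe set rules, and leaving out each siRNA array.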

Additional observations from a re-analysis of the deposited data

Results flagged for a closer look

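The ribosomal RNA control probe sets, which enter none of the comparisons, stood out on siRNA array 1: the median ratio to the scrambled array over 5 such probe sets was 4.01, against 0.985 on siRNA array 2. They are given because they lie outside the main measurement and above the scrambled level. CDKN2A and CDKN2B were lower on both siRNA arrays, and more so on siRNA array 2. The part of these controls in other results was not tested.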

How the results depend on the processing

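The directions of CDKN2A and CDKN2B held under every alternative run, but their calls did not. Other filters and spread models leave the differences of these genes unchanged, so those runs could not turn a direction. The members called were 2 genes and 2 probe sets, 0 and 0 without a filter, 1 and 0 under a stricter filter (the 75th percentile), 1 and 1 with quantile normalization, and 0 and 0 without the trend. With arrays centred the second bright CDKN2A probe set was called too (-1.37; adjusted p = 0.0230). Over the whole array, 571 probe sets and 582 genes were called, against 1 and 17 without a filter, 9 and 230 with the stricter filter, 357 and 323 with quantile normalization, and 1 and 1 without the trend. Arrays centred on their medians gave 1528 probe sets, 594 higher and 934 lower, where the deposited scale gave 324 and 247. At the 2-fold level, 1573 probe sets differed on both siRNA arrays, 3210 without a filter and 659 with the stricter one, since these settings test more or fewer probe sets. For the other changes the cause was not tested.

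With all arrays kept, 5 of the genes followed under each setting had differences that turned sign. With arrays centred CDK4 went to -0.025 and MIR31HG to -0.11, and with quantile normalization MIR31HG went to -0.10 and CDKN2D to -0.0097. With the mean of probe sets CDC25A went to 0.34 and CAAP1 to 0.038. None of these was called. Other list genes named were not followed singly under these settings, so their signs there are not given. CDC45 and RRM1, with small differences of 0.09 and 0.04 as deposited, were among them. With 1 siRNA array left out, which allows no test, CDKN2A differed by -0.97 to -1.22 and CDKN2B by -1.71 to -2.08. Among the genes and member probe sets followed, those whose siRNA arrays lay on opposite sides took the sign of the array kept. Without siRNA array 2 the sign turned for CCNE1 (-0.17), TUSC1 (0.09), MIR31HG (-0.29), 208711_s_at of CCND1 (0.58) and 224848_at and 235287_at of CDK6 (0.06 and 0.07). Without siRNA array 1 it turned for CDC25A (0.28). Other list genes were split too, among them MCM2, CDC45, RRM1, RRM2, TYMS and TK1. These lay below the scrambled array on siRNA array 1 and above it on siRNA array 2. No paired analysis was possible, with 1 scrambled array and no pairing stated in the labels. The single scrambled array limits every comparison, and dim probe sets, CCND2 among them, could not be tested.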
